A study of Mus musculus with 4 samples.

Results

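The genes described here are 10 markers of cortical and hippocampal interneurons: Gad1, Gad2, Slc32a1, Pvalb, Sst, Vip, Npy, Cck, Calb2 and Reln. For each gene, all regions of the deposited methylation table that carry its name were taken, together with the regions of the same chromosome within 3000 bp of the outermost of them. This gave 307 of the 849172 regions, 262 of them named for a member and 45 flanking, and all 307 had a value in each library. Reln alone held 170 of them, Gad1 30, Gad2 27, Calb2 19, Slc32a1 18, Pvalb 14, Cck 10, Npy 8, Vip 6 and Sst 5.

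The data are whole-genome bisulfite libraries of the CA1 field of the hippocampus of C57B6/J mice aged 117 days. Tet2+f_Camk2aCre and Tet2+f each have 2 libraries. The series text describes the tissue as haploinsufficient for Tet2, a dioxygenase that oxidises 5-methylcytosine, in glutamatergic cells. Tet2+f stands in both labels, and Camk2aCre, read as Cre recombinase driven by the promoter of Camk2a, in the first alone. No library carries Cre without Tet2+f, so reduced Tet2 and Cre itself cannot be told apart. Since no label ties a library to an animal of its own, p-values reflect only how far replicate libraries differ, and that may be technical spread. The table lists percent methylation per region without coverage, so the depth behind each value is unknown. Methylation levels do not show whether Tet2 was deleted, so the genotype labels could not be checked. Bisulfite conversion reads 5-methylcytosine and 5-hydroxymethylcytosine alike.

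Interneurons are the inhibitory neurons of the hippocampus and are few beside the pyramidal cells of CA1. They make GABA with the glutamate decarboxylases Gad1 and Gad2 and load it into vesicles with the transporter Slc32a1. Their subtypes are told apart by calcium-binding proteins such as parvalbumin (Pvalb) and calretinin (Calb2), by the neuropeptides somatostatin (Sst), vasoactive intestinal peptide (Vip), neuropeptide Y (Npy) and cholecystokinin (Cck), and by the matrix protein reelin (Reln). Camk2a is active mainly in excitatory forebrain neurons, so these genes mark cells that are for the most part outside the reach of the Cre. A level measured in tissue is an average over all its cells, and a change in the share of interneurons and a change of methylation within them cannot be told apart.

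Start sites of Sst, Vip and Pvalb are shown because they span the contrast among the members, from unmethylated to methylated. Each sequence is the 250 bases before an annotated start, read 5′ to 3′ along the gene from RefSeq (GRCm38.p6, which is NCBI's name for mm10), with every CpG in capitals. Start sites of 9 of the 10 genes were matched in the RefSeq promoter table, and that of Calb2 was taken from the RefSeq gene table.
Sst (chr16:23890845-23891094, minus strand): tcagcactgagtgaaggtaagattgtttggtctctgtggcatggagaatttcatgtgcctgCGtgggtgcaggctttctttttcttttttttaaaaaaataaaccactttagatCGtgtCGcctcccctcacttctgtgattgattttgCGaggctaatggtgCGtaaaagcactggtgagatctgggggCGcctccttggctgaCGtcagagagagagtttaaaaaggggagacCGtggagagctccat
Vip (chr10:5638968-5639217, plus strand): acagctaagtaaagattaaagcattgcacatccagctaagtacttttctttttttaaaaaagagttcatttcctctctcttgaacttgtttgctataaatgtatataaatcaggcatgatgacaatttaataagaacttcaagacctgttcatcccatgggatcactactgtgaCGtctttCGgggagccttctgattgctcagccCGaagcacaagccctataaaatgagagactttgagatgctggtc
Pvalb, upstream start (chr15:78206401-78206650, minus strand): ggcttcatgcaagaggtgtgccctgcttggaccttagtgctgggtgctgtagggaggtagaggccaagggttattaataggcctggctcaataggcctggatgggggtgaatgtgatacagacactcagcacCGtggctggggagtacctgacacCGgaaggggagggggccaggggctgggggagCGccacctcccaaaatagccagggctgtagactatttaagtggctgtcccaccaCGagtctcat
Pvalb, downstream start (chr15:78204238-78204487, minus strand): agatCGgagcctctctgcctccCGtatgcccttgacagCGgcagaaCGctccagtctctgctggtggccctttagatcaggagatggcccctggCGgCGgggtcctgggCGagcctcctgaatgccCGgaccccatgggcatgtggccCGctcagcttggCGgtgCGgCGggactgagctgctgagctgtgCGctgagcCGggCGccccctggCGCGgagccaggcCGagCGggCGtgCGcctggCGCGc

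With starts from the promoter table, and for Calb2 from the gene table, the region over a start was under 15% in 9 of the 10 genes. This held in all 4 libraries, for Pvalb at only one of its starts, and Vip was the exception. The outermost start of the gene table lay in a more methylated region in some genes. That of Sst, at 23891342, lay in a region with a mean of 70.6%, that of Slc32a1 in one of 32.5% and that of Gad2 in one of 17.2%. For Sst, whose 250 bases hold 8 CpGs, the start region of 358 bp was at 2.52% and 6.53% in the Tet2+f_Camk2aCre libraries and at 2.07% and 2.37% in the Tet2+f libraries. For Vip, with 3 CpGs, the start region of 2360 bp was at 59.3% and 71.2% in the Tet2+f_Camk2aCre libraries and at 61.6% and 66.98% in the Tet2+f libraries. All 4 libraries lay far above those of Sst, and the groups overlapped in Vip.

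Pvalb was methylated at one annotated start and nearly unmethylated at the other. Over the upstream start, with 4 CpGs in 250 bases, the region of 2067 bp was at 85.8% and 85.1% in the Tet2+f_Camk2aCre libraries and at 85.8% and 83.3% in the Tet2+f libraries. Over the downstream start, with 23 CpGs, the region of 433 bp was at 3.47% and 2.47% in the Tet2+f_Camk2aCre libraries and at 2.59% and 1.20% in the Tet2+f libraries. The 2 starts lie within one gene on chromosome 15 (78191112 to 78206400), and no library came near the level of the other start at either of them.

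A cAMP response element, the site bound by the activity-dependent factor CREB, is known in the Sst promoter and contains a CpG. The letters TGACGTCA, searched on both strands, occurred in the 250 bases of Sst, beginning 48 bases before the start (chromosome 16, 23890885 to 23890892), in the region with a mean of 3.37% over the 4 libraries. They occurred in 1.55% of all 32851 RefSeq promoter windows of that length and in none of the other 8 members with a sequence. The shorter run TGACGT, which is part of the first, was also found in Vip, 79 bases before the start (chromosome 10, 5639139 to 5639144), in the region with a mean of 64.8%, and in 6.47% of all windows. The values are region means, so the level of the CpG within these letters was not analysed here. Of the 250 bases before the Sst start, 100 fell in the low region and 150 in the next region upstream, which had a mean of 70.6%.

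**Figure D1:**
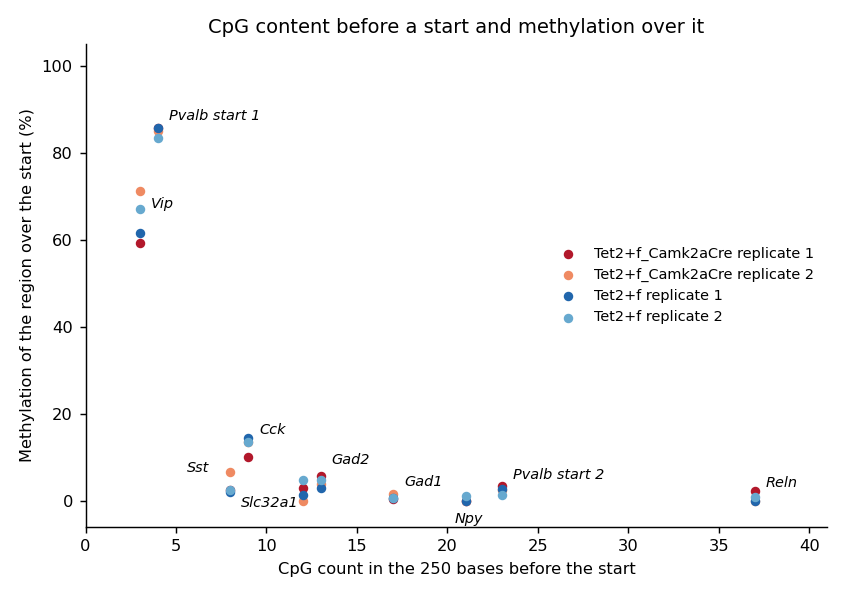
Percent methylation of the region over each start with a sequence (vertical axis) against the CpG count of the 250 bases before it (horizontal axis). Points are libraries, with Tet2+f_Camk2aCre in red and orange and Tet2+f in blue. The starts with 3 and 4 CpGs, those of Vip and the upstream one of Pvalb, lie above 59%, and the other 8 lie below 15%.

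Over the 10 starts with a sequence, CpG content and start methylation set the same starts apart. Vip with 3 CpGs and the upstream Pvalb start with 4 were the poorest in CpG and the only ones methylated above 15%. Sst, Cck, Slc32a1 and Gad2 held 8, 9, 12 and 13 CpGs, and their start regions had means of 3.37%, 12.9%, 2.27% and 4.32%. Gad1, Npy, the downstream Pvalb start and Reln held 17, 21, 23 and 37 CpGs, with start regions at 0.775%, 0.272%, 2.43% and 0.730%. The median over all RefSeq windows was 6 CpGs, with quartiles of 2 and 16, and 98.1% of the windows held no more CpGs than that of Reln. These are descriptions of 10 starts in the same 4 libraries. The bases counted and the region measured are partly different DNA: for Cck 187 of the 250 bases lay in the next region upstream, with a mean of 42.3%, and for the downstream Pvalb start 201 lay in one with a mean of 16.3%. Low regions were shorter than methylated ones. Member regions under 20% had a median length of 445.5 bp and those of at least 70% one of 2755 bp, against 331 and 2877 bp over all regions.

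Among the genes of GABA synthesis and loading, the low domain reached well beyond the start. It was measured as the run of neighbouring regions around the start with a mean under 20%. Slc32a1, a compact gene on chromosome 2 (158607260 to 158615747), had a run of 7668 bp in 15 regions, and all 11 regions named for the gene were under 20%. From the start in the promoter table, at 158610758, to the end of the gene each region was in the run, while the region around the outermost start of the gene table had a mean of 32.5%. Its start region was at 2.94% and 0% in the Tet2+f_Camk2aCre libraries and at 1.33% and 4.80% in the Tet2+f libraries. The border past the end of the gene was abrupt in each library. The last region of the run had a mean of 4.48%, and the next, 6280 bp from the start, was at 75.6% and 67.1% in the Tet2+f_Camk2aCre libraries and at 65.2% and 60.1% in the Tet2+f libraries.

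Gad2 (chromosome 2, 22621015 to 22693877) had a run of 6448 bp in 9 regions, of the same length in all 4 libraries. Its start region was at 5.69% and 3.79% in the Tet2+f_Camk2aCre libraries and at 2.96% and 4.85% in the Tet2+f libraries. Gad1 (chromosome 2, 70561303 to 70602014) had a graded domain. Its start region was at 0.417% and 1.43% in the Tet2+f_Camk2aCre libraries and at 0.617% and 0.631% in the Tet2+f libraries (the region carries the name of an overlapping transcript, 1500002O10Rik, and was counted as a flank). The run under 20% covered 5776 bp for the mean of the libraries, 4566 bp in both Tet2+f_Camk2aCre libraries, and 4566 and 7483 bp in the Tet2+f libraries. Further into the gene came regions of intermediate level, such as that from 70566713 to 70567379, at 30.1% and 30.8% in the Tet2+f_Camk2aCre libraries and at 33.2% and 19.3% in the Tet2+f libraries, followed by a dip at 70567385 to 70568081 with 15.3% and 15.1% in Tet2+f_Camk2aCre against 15.7% and 14.8% in Tet2+f. With low regions defined as under 30% the Gad1 run was 12498 bp long, against the same 6448 bp in Gad2 and 7668 bp in Slc32a1. Downstream, this Gad1 run ended 7459 bp from the start in the promoter table, and the rest of it lay upstream of that start.

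The neuropeptide genes had shorter low domains. Npy (chromosome 6, 49822710 to 49829507) had a run of 1431 bp, with the start region at 0% in both Tet2+f_Camk2aCre libraries and at 0% and 1.09% in the Tet2+f libraries. Cck (chromosome 9, 121489824 to 121495694), which is also expressed by excitatory neurons, had a run of 2014 bp that began at the start and ran downstream. Its start region was at 10.1% and 13.5% in the Tet2+f_Camk2aCre libraries and at 14.5% and 13.5% in the Tet2+f libraries, and its lowest region, 1052 to 1333 bp into the gene, at 0.800% and 0% in Tet2+f_Camk2aCre against 0.500% and 0.3333% in Tet2+f. The run of Sst (chromosome 16, 23889573 to 23891342) was the single start region of 358 bp. The region downstream of it, 1715 bp long, was at 34.98% and 35.1% in the Tet2+f_Camk2aCre libraries and at 35.6% and 39.2% in the Tet2+f libraries. Vip (chromosome 10, 5639193 to 5647617) had no region under 20%, and its start region was its lowest.

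The calcium-binding protein genes and Reln were low only near a start and methylated along the gene. Calb2 (chromosome 8, 110142526 to 110168212) had a run of 1235 bp, with the start region at 3.17% and 2.38% in the Tet2+f_Camk2aCre libraries and at 3.78% and 1.32% in the Tet2+f libraries. The run at the downstream Pvalb start was 1349 bp long. Reln (chromosome 5, 21884454 to 22344705) is the longest member, and its start region was at 2.13% and 0% in the Tet2+f_Camk2aCre libraries and at 0% and 0.794% in the Tet2+f libraries. The run at its start was 1497 bp long in 7 regions in 3 libraries and 2911 bp in Tet2+f replicate 1, and 1 of the 7, upstream of the start, was at exactly 0% in all 4 libraries. Of the 158 Reln regions more than 3000 bp into the gene, 9 had a mean under 70%. The median of the 158 was 85.4%. The lowest, on chromosome 5 from 21947933 to 21949481, was at 58.0% and 61.4% in the Tet2+f_Camk2aCre libraries and at 58.2% and 56.9% in the Tet2+f libraries.

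**Figure D2:**
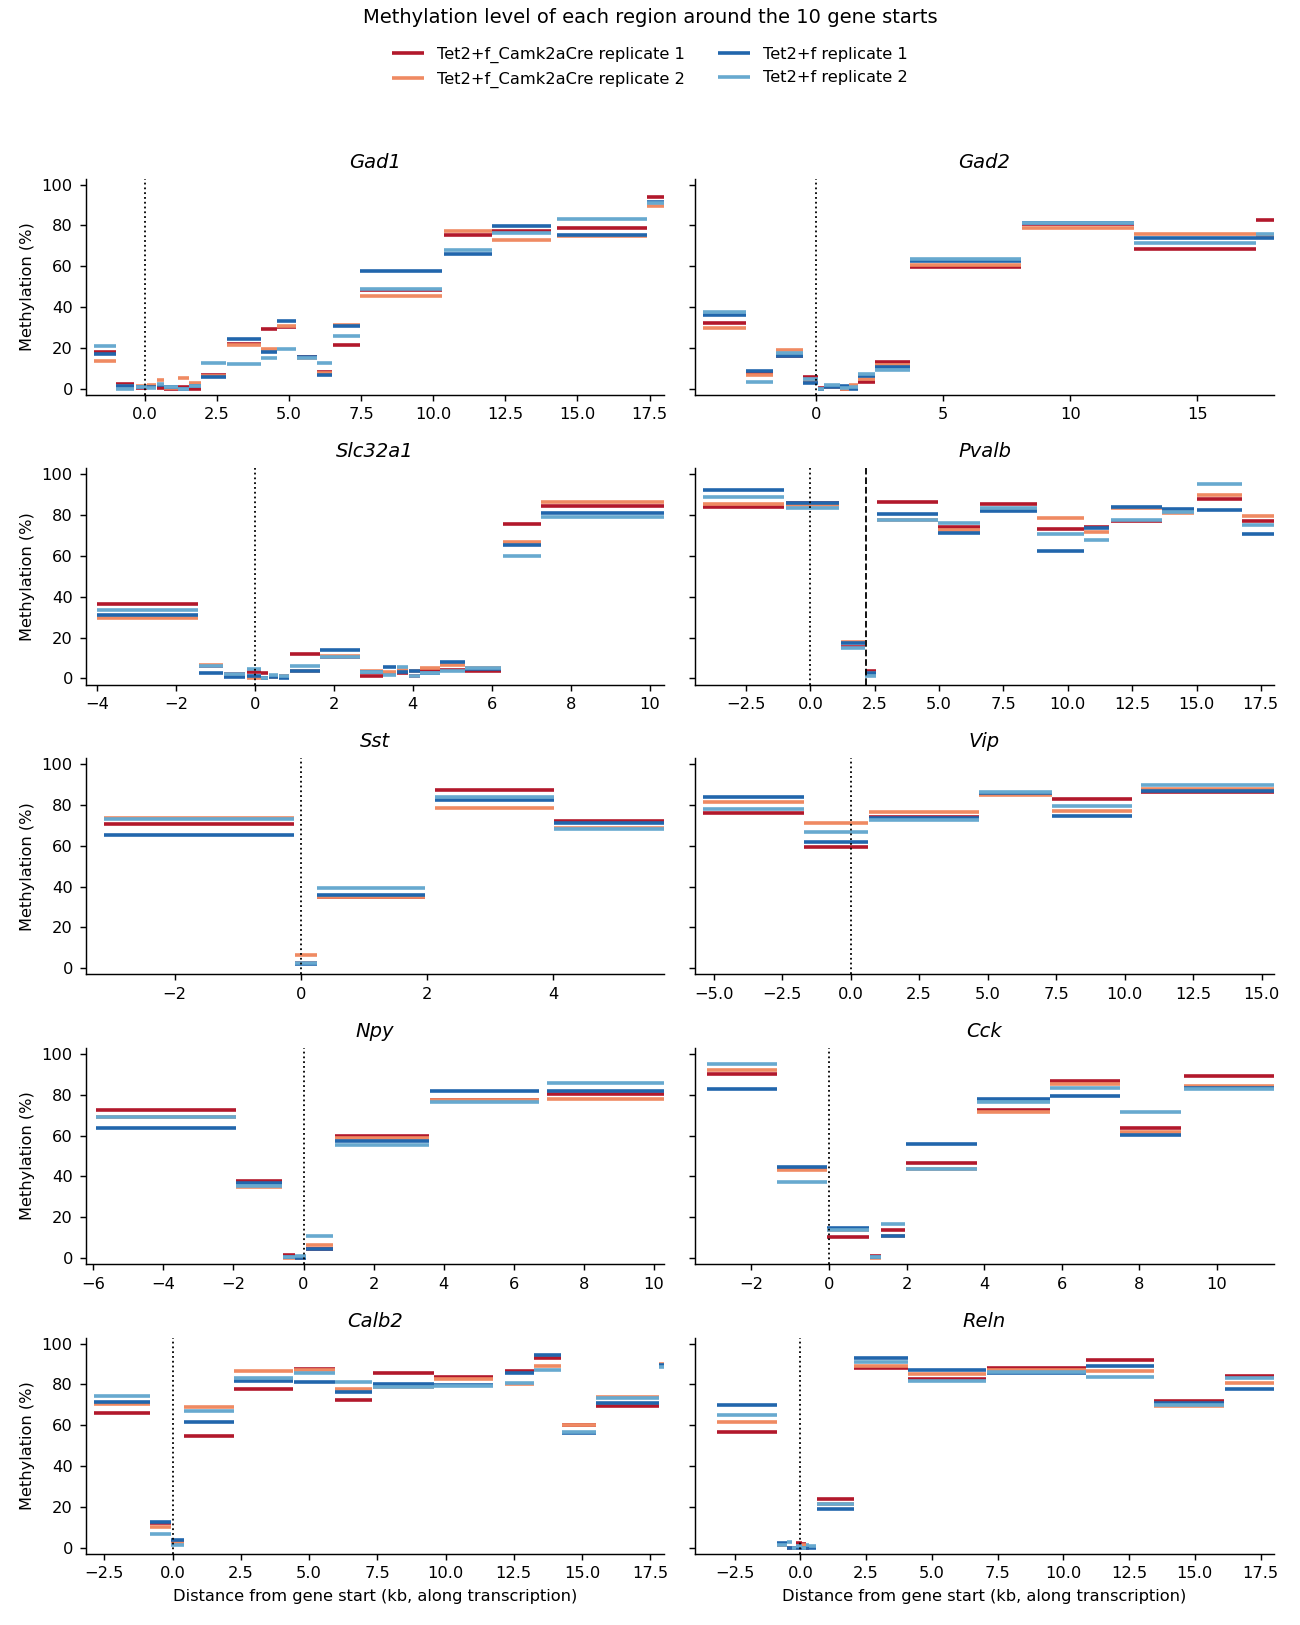
Percent methylation (vertical axis) of each region, drawn as a bar from its start to its end, against the distance from the annotated gene start in kb along transcription, for the 10 genes and 4 libraries. Dotted lines mark the start and the dashed line the downstream start of Pvalb; at most 18 kb are shown. Every gene but Vip dips below 20% near a start, and the 4 libraries run together, with Slc32a1 low over 7668 bp and Sst over 358 bp.

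Averaged over the regions named for each gene, the members spread from nearly unmethylated to more methylated than most genes. Slc32a1 averaged 3.89% ± 0.0468 (SD, n = 2) in the Tet2+f_Camk2aCre libraries and 3.74% ± 0.503 (SD, n = 2) in the Tet2+f libraries, and 1.06% of all 26848 genes had a lower level. Sst followed at 19.8% ± 1.46 and 19.8% ± 1.37, then Npy at 35.6% ± 0.133 and 35.9% ± 0.0509, and Cck at 37.9% ± 0.642 and 39.3% ± 0.566 (Tet2+f_Camk2aCre and then Tet2+f, SD, n = 2 each). The decarboxylase genes were adjacent in this order, Gad1 at 54.6% ± 0.0164 and 54.1% ± 0.180, and Gad2 at 55.8% ± 0.619 and 55.1% ± 0.182, in the same order of groups. The Gad1 level leaves out the regions at its start, which carry the name 1500002O10Rik, while that of Gad2 includes its start region. The Slc32a1 level likewise leaves out its start region and the regions just upstream, which carry the name Gm14204. Over the locus with flanks, the mean of the 4 libraries was 13.2% for Slc32a1, 43.6% for Gad1 and 52.3% for Gad2. Pvalb averaged 67.6% ± 0.100 and 66.2% ± 0.299, Calb2 73.6% ± 1.42 and 72.7% ± 0.643, Vip 76.6% ± 1.40 and 75.2% ± 1.70, and Reln 81.9% ± 0.438 and 81.7% ± 0.213. Reln was above 74.8% of all genes, whose median level was 74.5%.

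In that order, neighbouring genes did not overlap in the 4 libraries, except Calb2 and Vip. The highest library of Gad1, 54.6%, and the lowest of Gad2, 55.0%, were close. The order depends on which regions carry the name of a gene, as in Gad1. It also depends on how regions are weighted, since the short regions at a start count as much as long ones. Weighted by length, the mean of the 4 libraries was 30.6% for Sst in place of 19.8% and 58.8% for Npy in place of 35.7%, which put Npy above Cck at 53.3%. Gad1, at 66.6%, then lay apart from Gad2, while Gad2, Pvalb, Calb2 and Vip overlapped, at 74.3%, 74.95%, 75.9% and 76.01%.

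**Figure D3:**
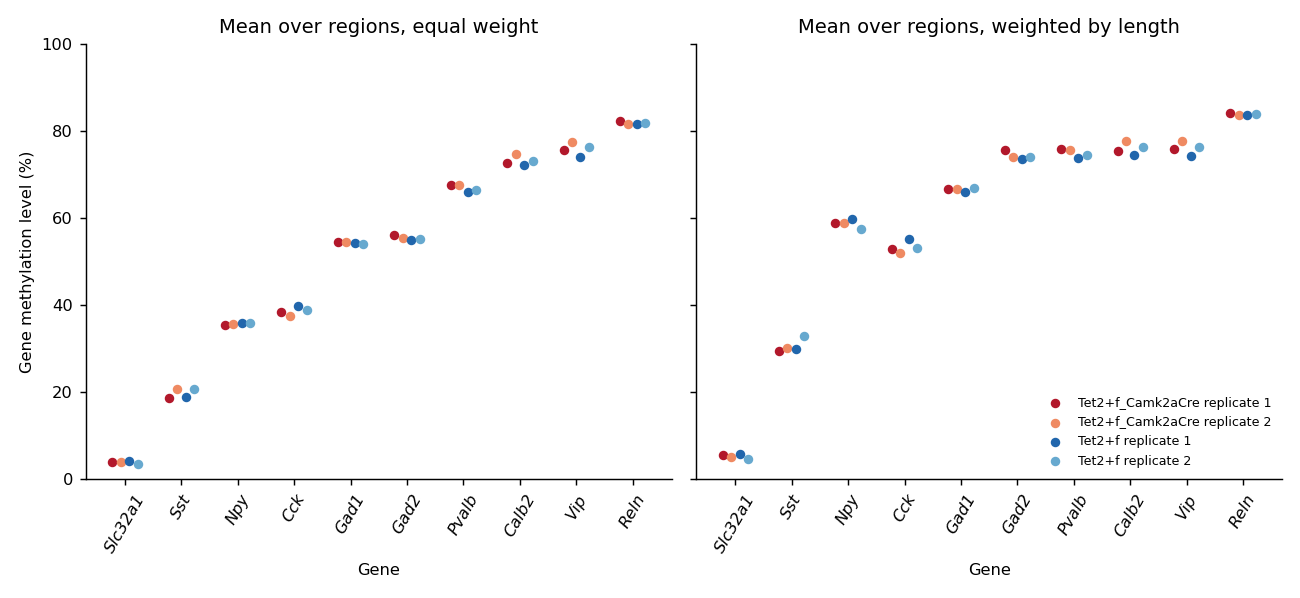
Mean percent methylation of each gene (vertical axis), one point per library, with regions weighted equally (left) or by length (right), with genes ordered by the equal-weight mean and Tet2+f_Camk2aCre points left of Tet2+f points. Slc32a1 stays below 6% in both panels and Reln above 81%, while Sst and Npy rise to 30.6% and 58.8% with length weights.

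No member differed between the groups beyond the spread between libraries by the adjusted test. The test was limma on log2-transformed ratios of methylated to unmethylated share, fitted over all regions, genes or promoters of the table, with Benjamini-Hochberg adjustment at 0.05. At the gene level 7 members were higher and 3 lower in Tet2+f_Camk2aCre, beside 50.9% of all genes higher. The median difference was 0.329 points, beside 0.0223 points over all genes. The largest difference upward was 1.47 points for Pvalb (limma adjusted p = 0.961) and the largest downward was -1.41 points for Cck (limma adjusted p = 0.988). In Pvalb the Tet2+f_Camk2aCre libraries, at 67.7% and 67.6%, lay above the Tet2+f libraries, at 65.9% and 66.4%. In Cck they lay below, at 38.4% and 37.5% against 39.7% and 38.9%. Groups did not overlap in 5 of the 10 members, beside 33.1% of all genes. None of the members had an unadjusted p under 0.05, beside 5.32% of all genes (2.64% higher and 2.68% lower), and the adjusted test passed 0 of 26848 genes (0%).

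Promoters, taken as 2000 bp upstream to 500 bp downstream of the outermost RefSeq start, were lower in Tet2+f_Camk2aCre in 7 members and higher in 3, beside 50.8% of all promoters higher. The median difference was -1.10 points, beside 0.0256 points over all 19747 promoters. The largest decrease was at Pvalb, with 84.9% and 85.3% in the Tet2+f_Camk2aCre libraries and 89.0% and 86.2% in the Tet2+f libraries, a difference of -2.45 points (limma adjusted p = 0.959). Gad1 followed with 13.7% and 11.7% in the Tet2+f_Camk2aCre libraries and 16.2% and 13.9% in the Tet2+f libraries, a difference of -2.32 points (limma adjusted p = 0.959). The groups did not overlap in either. Both sizes rested on single libraries. Without Tet2+f replicate 1 the difference was -1.04 points for Pvalb and -1.19 points for Gad1, and without Tet2+f replicate 2 it was -3.86 and -3.45 points. Without Tet2+f_Camk2aCre replicate 2 that of Gad1 was -1.32 points. With 1000 bp upstream in place of 2000 bp, Pvalb turned upward, at 0.874 points. The Sst promoter was the highest upward, at 36.5% and 40.1% in the Tet2+f_Camk2aCre libraries and 33.8% and 37.7% in the Tet2+f libraries, a difference of 2.58 points with overlapping groups (limma adjusted p = 0.971). Leaving out 1 library at a time gave 0.627 to 4.54 points for Sst, with 0.627 without Tet2+f replicate 1 and 0.826 without Tet2+f_Camk2aCre replicate 2. With the start taken from the promoter table instead, Gad2 and Slc32a1 turned upward, at 0.492 and 0.481 points, and Sst differed by 0.931 points. Gad1 then differed by -1.51 points and had an unadjusted p of 0.0272 (limma adjusted p = 0.969). With that start, 743 of 15127 promoters had an unadjusted p under 0.05. With the outermost RefSeq start, the other differences ran from -1.38 points in Gad2 to 0.777 points in Cck. No member promoter so defined had an unadjusted p under 0.05, beside 5.08% of all promoters (2.5% higher and 2.58% lower), and groups did not overlap in 4, beside 33.7%.

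Region by region the members behaved like the table at large. Of the 307 regions, 162 were higher in Tet2+f_Camk2aCre, 144 lower and 1 equal, beside 49.2% of all regions higher. The median absolute difference was 1.75 points, beside 1.74 points over all regions. The median absolute difference between replicates in the same regions was 2.10 points in Tet2+f_Camk2aCre and 2.42 points in Tet2+f. A difference between means of 2 libraries varies less than one between single libraries, so these sizes are not directly comparable. Groups did not overlap in 104 regions (33.9%), beside 32.8% of all regions. An unadjusted p under 0.05 was reached by 14 regions (4.56%), beside 4.6% of all regions, with 8 higher in Tet2+f_Camk2aCre, beside 2.25%, and 6 lower, beside 2.35%. None passed after adjustment (limma adjusted p of at least 0.937), and neither did any of the 849014 regions tested (0%).

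Of those 14 regions, 5 lay near an unmethylated start or in the Slc32a1 low domain and differed by under 3 points. The smallest p belonged to the Reln region 50 to 195 bp into the gene, at 2% and 1.17% in the Tet2+f_Camk2aCre libraries and at 0% in both Tet2+f libraries (unadjusted p = 0.00295, limma adjusted p = 0.937). The region 1159 to 1522 bp into Gad1 was at 0.877% and 5.10% in the Tet2+f_Camk2aCre libraries and at 0% in both Tet2+f libraries. In the region 927 to 1289 bp into Gad2 both Tet2+f_Camk2aCre libraries were at 0%, and the Tet2+f libraries were at 1.45% and 0.500%. Without coverage, the number of reads behind such levels is unknown. Distances are from the start in the promoter table.

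The other regions with an unadjusted p under 0.05 were methylated in all libraries. The Gad1 region from 70572505 to 70574150 (chromosome 2), downstream of the intermediate regions, was at 75.3% and 77.4% in the Tet2+f_Camk2aCre libraries and at 66.1% and 67.9% in the Tet2+f libraries. Its difference of 9.34 points was the largest upward among the 307 regions, with a log2-ratio difference of 0.65 ± 0.20 (SE; limma adjusted p = 0.937). The region before it, from 70569589 to 70572441, differed by -6.41 points (limma unadjusted p = 0.212), at 48.1% and 45.3% in the Tet2+f_Camk2aCre libraries and at 57.5% and 48.8% in the Tet2+f libraries. Reln held 6 such regions along the gene, 3 higher and 3 lower, with differences from -5.68 to 6.65 points. The highest of them in level, on chromosome 5 from 22201951 to 22204523, was at 97.1% and 95.3% in the Tet2+f_Camk2aCre libraries and at 90.5% and 90.7% in the Tet2+f libraries. Flanking regions of Pvalb, upstream of the gene, and of Calb2, past its end, differed by -5.77 and -7.60 points. The Calb2 flank was at 82.2% and 90.0% in the Tet2+f_Camk2aCre libraries and at 95.05% and 92.4% in the Tet2+f libraries, and leaving out 1 library at a time gave -11.5 to -3.71 points.

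In the remaining members, the largest differences without overlap of the groups were 9.18 points in a region of Pvalb 8806 to 10630 bp into the gene, 8.66 points past the end of Slc32a1 and -8.28 points upstream of Reln. The Pvalb region was at 73.5% and 78.4% in the Tet2+f_Camk2aCre libraries and at 62.6% and 71.0% in the Tet2+f libraries (limma unadjusted p = 0.0799). The corresponding values were -5.99 points upstream of Gad2, -5.29 points in Cck, 4.67 points upstream of Npy, -2.38 points in Sst and 2.26 points in Vip. None of these 8 had an unadjusted p under 0.05. With 1 library left out at a time, the values ranged from 4.96 to 13.4 points for Pvalb, 4.41 to 12.9 for Slc32a1, 1.97 to 7.37 for Npy, -4.16 to -0.588 for Sst and 0.857 to 3.66 for Vip, with no change of sign.

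**Figure D4:**
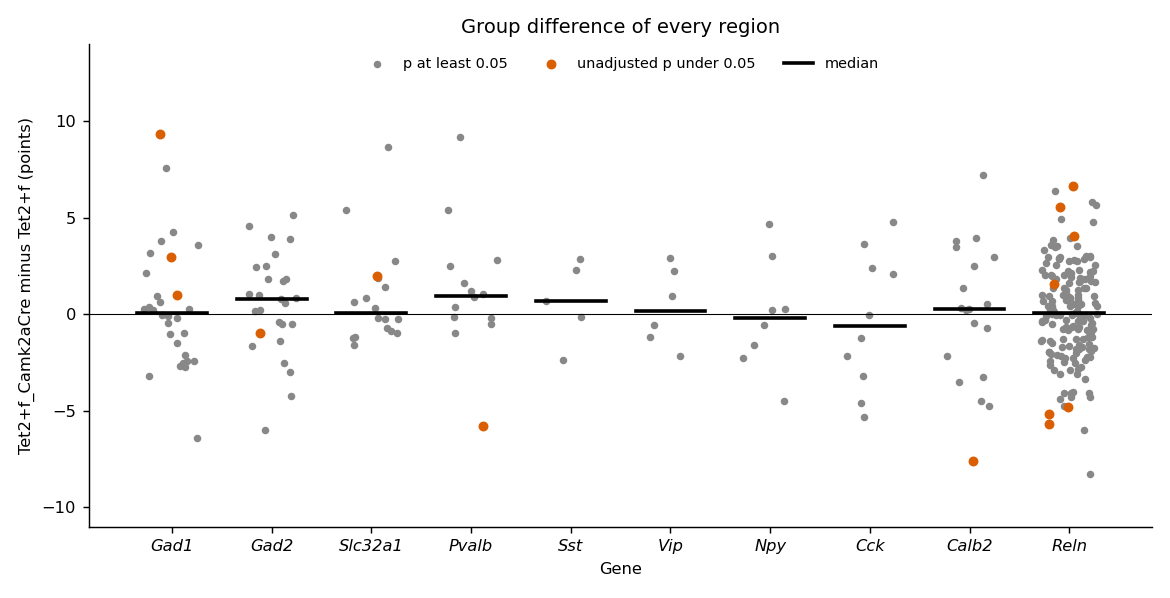
Difference in percent methylation, Tet2+f_Camk2aCre minus Tet2+f, in points (vertical axis) for every region of each gene and its flanks, one point per region; orange marks an unadjusted p under 0.05 and black lines the median of each gene. The points scatter around 0 in all genes, between -8.28 and 9.34 points, and none passed after adjustment.

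Averaged over all regions of the 10 loci with their flanks, the level was 67.1% and 66.8% in the Tet2+f_Camk2aCre libraries and 66.5% and 66.8% in the Tet2+f libraries. The difference was 0.260 points (exact permutation test over 6 arrangements, two-sided, p = 0.667), and 0.3333 is the lowest p that 6 arrangements allow. Without Reln the difference was 0.453 points and the groups did not overlap (exact permutation p = 0.3333), with 50.1% and 50.2% in the Tet2+f_Camk2aCre libraries and 49.6% and 49.9% in the Tet2+f libraries. In Gad1, Gad2, Slc32a1 and Pvalb both Tet2+f_Camk2aCre libraries were higher over the locus, by 0.397, 0.544, 0.932 and 1.25 points (exact permutation p = 0.3333 each). In the other 6 loci the groups overlapped. Locus means were not computed for all genes, but at the gene level the groups did not overlap in 33.1% of all genes.

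Other genes of the interneuron programme gave no adjusted call either. Among lineage transcription factors, which direct interneurons from the embryonic ganglionic eminences onward, 15 of 17 had regions under their name, of which 10 were higher and 5 lower in Tet2+f_Camk2aCre (median 0.231 points). As a group they were low, with a median gene level of 12.47%, against 54.9% over the 10 members and 74.5% over all genes. They ranged from 2.21% for Nkx2-1, a regulator of medial ganglionic eminence identity, through 5.41% for Dlx2 to 78.0% for the long gene Sox6. The promoter of Nkx2-1 was the only one of these 15 with an unadjusted p under 0.05, beside 5.08% of all promoters. It was at 3.97% and 3.67% in the Tet2+f_Camk2aCre libraries and at 2.68% and 2.95% in the Tet2+f libraries (limma adjusted p = 0.959).

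A further list of 6 genes of GABA uptake and breakdown included Slc6a6, a taurine transporter gene. Of the 6, 2 were higher and 4 lower at the gene level (median -0.211 points). Their levels ran from 62.2% for Slc6a6 to 82.6% for the transaminase gene Abat. Among other subtype markers, 20 of 22 had regions, of which 7 were higher and 13 lower (median -0.122 points). Their levels ran from 9.58% for Id2 to 86.6% for Sncg. Sncg was the only one of the 20 with an unadjusted p under 0.05, beside 5.32% of all genes. It was at 86.3% and 84.8% in the Tet2+f_Camk2aCre libraries and at 87.8% and 87.7% in the Tet2+f libraries (limma adjusted p = 0.918).

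Receptors for the peptides and reelin, listed together with Dab1, an intracellular adaptor of reelin signalling, were also spread widely. Of 16 genes listed, 14 had regions, of which 9 were higher and 5 lower (median 0.185 points). The regions named for the somatostatin receptor gene Sstr1 were nearly unmethylated, at 1.77% and 1.25% in the Tet2+f_Camk2aCre libraries and at 2.38% and 1.61% in the Tet2+f libraries. The promoter of Sstr1 was higher, at 36.4% over the 4 libraries. At the gene level Sstr3 averaged 73.5% over the 4 libraries. The cholecystokinin receptor gene Cckar was the highest in level and the only one of the 14 with an unadjusted p under 0.05, beside 5.32% of all genes. It was at 79.9% and 80.2% in the Tet2+f_Camk2aCre libraries and at 78.3% and 78.2% in the Tet2+f libraries (limma adjusted p = 0.914).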

How the data were processed

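Methylation was measured in 4 libraries of CA1 tissue. The authors deposited a level in percent for each region in each library. Bismark 0.19.0, Trim Galore 0.4.5, FastQC 0.11.5 and edgeR are listed, with no role, per the submitters' processing notes, as is the build mm10. How regions were drawn, and any coverage minimum, is not given in the sources used here. Library means over all regions were between 75.7% and 76.1%.

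Of 849172 regions, 158 lacked a value in a library and were left out. Levels of genes (regions named for the gene, equal weight) and promoters were means of regions. Levels were written as shares of 1, transformed to log2((share + 0.01) / (1 - share + 0.01)) and compared with limma 3.58.1 in R 4.3.3, over all features. The strand of a gene came from the table and its position from RefSeq. The correlation between the groups' replicate differences was 0.00648 over regions, and replicate numbers were not read as pairs. On simulated levels with 200 changed features, the gene test recovered 0% of changes of 10 points and 66.5% of 20 points, and the region test 0% of both. Without adjustment, changes of 10 points were recovered in 94% of genes and 72% of regions. The changed features had intermediate levels and were moved towards the middle. For such features, changes of the size seen here were not detectable after adjustment. Nearly unmethylated or highly methylated features were not changed, and the median member region was at 81.5%. The members, gene lists and tests were chosen with earlier results of these data known. Named were all members, their start and lowest regions, those with an unadjusted p under 0.05, the largest difference without overlap per gene, and at most 2 genes per list and direction with an unadjusted p under 0.05.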

Additional observations from a re-analysis of the deposited data

How the results depend on the processing

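The count of 0 regions and 0 genes past the adjusted threshold held under all 10 and 12 alternatives run, and that of 0 promoters under 10 of 12. With a trended and robust prior or a length-weighted mean 1 promoter passed, which was not a member. A fit with a replicate block, whose numbers were not read as pairing libraries, also passed 0 regions, 0 genes and 0 promoters. Without any 1 library the counts stayed at 0, and the difference over all member regions ranged from 0.101 to 0.420 points; no other setting turned its sign. Settings that need coverage were not run. The start of the promoter table, the average without Reln and the 30% limit were chosen after seeing the data.

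Small differences of single members turned sign with some settings, and the cause was not tested. With a promoter 1000 bp upstream the difference was 0.921 points for Gad2, 0.874 for Pvalb, 0.954 for Vip and -0.573 for Npy. With the start of the promoter table it was 0.492 points for Gad2 and 0.481 for Slc32a1. With all regions overlapping the RefSeq gene the Sst gene difference was 0.931 points. With length weights the Npy difference was 0.181 points for the gene and 0.330 for the locus. Without flanks the locus difference was -0.0337 points for Sst and 0.920 for Calb2.

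Over the libraries left out, gene differences ranged from -0.205 to 0.507 points for Slc32a1, -1.07 to 1.001 for Sst, -0.0850 to 1.93 for Calb2 and -0.146 to 0.474 for Reln. Promoter differences ranged from -2.92 to 0.407 for Slc32a1, -4.97 to 3.75 for Vip, -0.647 to 1.60 for Npy and -3.28 to 0.751 for Calb2. Locus differences ranged from -0.330 to 1.66 for Sst, -0.876 to 1.62 for Vip, -0.671 to 0.495 for Npy, -0.922 to 0.212 for Cck, -1.07 to 1.06 for Calb2 and -0.196 to 0.405 for Reln. The low run of Gad1 was 12498 bp and that of Reln 2911 bp with a limit of 30%.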

Other observations

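Markers of other cell types in CA1 tissue gave no adjusted call at the gene or promoter level. CA1 pyramidal neuron markers had a median gene level of 33.4% over 15 genes, below the 54.9% of the interneuron markers, with 9 higher and 6 lower in Tet2+f_Camk2aCre. Their promoters were higher in 12 of 15, with a median difference of 1.12 points, beside 50.8% of all promoters higher.

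Microglia and endothelial markers were the most methylated of the lists at the gene level, with medians of 72.8% over 9 genes and 80.3% over 10 genes. Of these, 2 and 4 were higher in Tet2+f_Camk2aCre. The 10 endothelial promoters were evenly split, 5 up and 5 down in Tet2+f_Camk2aCre (median 0.0227 points). Their largest difference was upward, at 5.04 points for Emcn. Of the 10, only Pecam1 and Vwf, both lower, had an unadjusted p under 0.05, beside 5.08% of all promoters. The promoter of Pecam1, an adhesion molecule, was at 83.3% and 84.0% in the Tet2+f_Camk2aCre libraries. It was at 88.7% and 87.1% in the Tet2+f libraries, without overlap (unadjusted p = 0.00842, limma adjusted p = 0.958). Astrocyte and oligodendrocyte markers had median gene levels of 65.9% and 62.5%, with 5 of 10 and 4 of 10 higher.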
